A study of Mus musculus with 6 samples.

Results

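A set of 10 genes that mark brain endothelial cells and the blood-brain barrier was followed in cell preparations sorted for the oligodendrocyte lineage. The preparations came from the brains of wild-type mice and of mice without a working Npc1 gene, and they also held transcripts of other cell types. The 10 genes were Cldn5, Pecam1, Cdh5, Flt1, Kdr, Tek, Slco1a4, Abcb1a, Mfsd2a and Ly6c1, picked by gene symbol from the 55492 genes of the expression table. Each symbol matched 1 gene, and all 10 genes were among the 15245 whose mean level over the 6 samples reached a TPM of 0.5 (TPM, the share of a library's transcripts that a gene holds, corrected for transcript length). The WT group held 3 mice and the Npc1-/- group held 3 mice, all at postnatal day 16, untreated and with 1 mouse per RNA library. The Npc1-/- mice carried the nih allele on both copies and were F1 hybrids between BALB/cJ and C57BL6/J heterozygotes. The paper states that littermates were genotyped before experiments, and it does not give the background of these WT mice separately. The allele is germline, so vessel cells and every other cell of these mice carried it, and the 2 genotypes differed in more than the sorted lineage. Whole brains were dissociated and cells bearing the O4 antigen, a surface lipid of maturing oligodendrocytes, were pulled out on magnetic beads before poly(A) RNA was sequenced.

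Endothelial cells line the inner wall of blood vessels and are joined by adherens and tight junctions. In the brain those junctions are nearly sealed, and transporters in the endothelial membrane decide which nutrients and drugs cross, which together is known as the blood-brain barrier. Growth of the vessels is steered by vascular endothelial growth factors (VEGFs) and angiopoietins acting on receptors on the endothelial surface, while Wnt signals from the surrounding tissue induce and keep the barrier program. None of the 10 genes is a usual marker of the oligodendrocyte lineage that the sort was aimed at. In bulk RNA, fewer endothelial cells and less RNA per endothelial cell cannot be told apart.

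Low values in the FPKM table moved in steps that corresponded to 40250000 to 50250000 fragments per library. At that depth the lowest member level, Kdr in Npc1-/- replicate 3, stood for about 428 fragments per kilobase of transcript, so counting error was small beside the spread between mice. TPM values were divided by a size factor per sample, between 0.727 and 1.295, and the results are called scaled TPM. The myelin gene Mbp alone held 18.8% to 26.1% of TPM. The library labels were checked on Npc1, which stood at 41.1, 45.5 and 43.9 scaled TPM in WT and at 3.72, 5.17 and 4.35 in Npc1-/- mice (log2 fold change −3.17, limma adjusted p = 0.000398). All 9 markers of the oligodendrocyte lineage were detected in every library, and Sox10, a transcription factor of that lineage, held 174 ± 14.8 scaled TPM in WT and 178 ± 23.1 in Npc1-/- cells (SD, n = 3 each).

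All 10 endothelial genes had a lower mean in Npc1-/- than in WT preparations, at 48.3% to 72.3% of the WT mean. For 9 of the 10, every Npc1-/- sample lay below every WT sample, which was also the case for 14.2% of all genes tested. The exception was Ly6c1. None of the 10 passed the limma test at an adjusted p below 0.05 over all 15245 genes, where 0.813% of genes were called in either direction and 0.413% were called lower. At an unadjusted limma p below 0.05, 9 of the 10 were lower, against 11.6% of all genes tested. At an adjusted p below 0.1 the count was 8 of 10, against 5.13% of all genes. The 10 genes had a median log2 fold change of −0.80, beside 0.01 for all genes tested, whose percentiles 5 and 95 were −0.64 and 0.56.

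**Figure D1:**
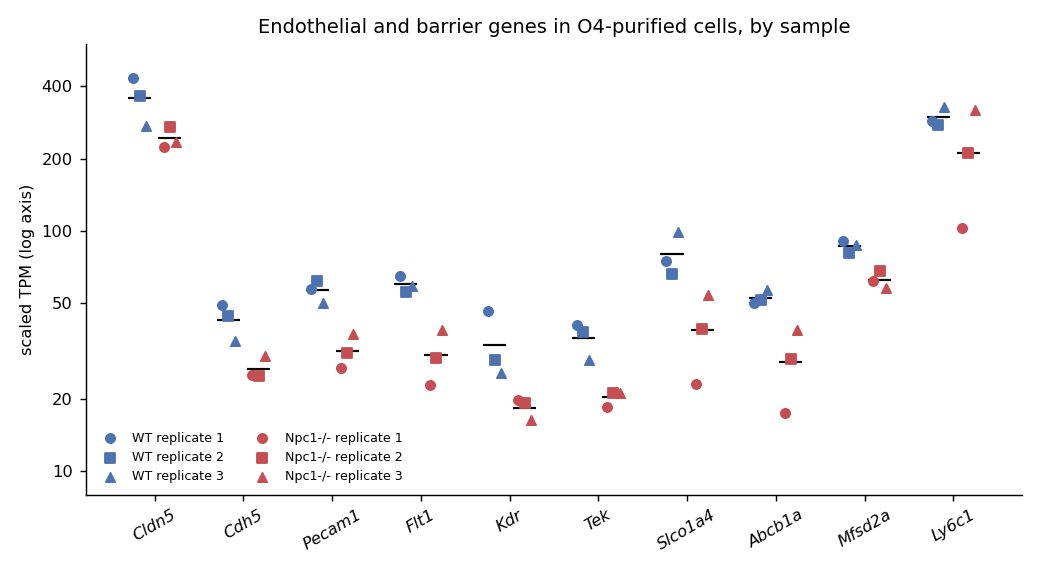
Scaled TPM (log axis) of the 10 endothelial genes in each of the 3 WT and 3 Npc1-/- samples. Symbols mark the replicates and short lines the group means. The Npc1-/- points sit below all WT points for every gene except Ly6c1, whose Npc1-/- samples run from 102.5 to 319.2.

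Junction proteins hold the endothelial sheet together. Cldn5 encodes claudin-5, the main tight-junction strand protein of brain endothelium, and lies on chromosome 16 (GRCm38, 18776847 to 18778262, plus strand). Its level was 435.0, 366.1 and 273.6 scaled TPM in the WT samples and 223.7, 270.4 and 234.4 in the Npc1-/- samples. It was the most abundant of the 10, and WT replicate 3 came within a few units of Npc1-/- replicate 2, so the groups were separated only narrowly. The log2 fold change was −0.54 ± 0.18 (SE; 95% interval −0.96 to −0.12, limma adjusted p = 0.138).

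Cdh5 encodes VE-cadherin, the adhesion molecule of endothelial adherens junctions (chromosome 8, 104101625 to 104144511, plus strand). Its WT values were 49.2, 44.2 and 35.0 scaled TPM and its Npc1-/- values 25.1, 24.9 and 30.1. The 3 Npc1-/- samples were close to each other and below the lowest WT sample, with a log2 fold change of −0.66 ± 0.14 (SE; limma adjusted p = 0.0642). Pecam1 encodes CD31, an adhesion molecule at endothelial cell contacts (chromosome 11, 106654217 to 106750628, minus strand). It stood at 57.5, 62.3 and 50.2 in WT and at 27.0, 31.2 and 37.2 in Npc1-/- samples, with no overlap and a wide gap. At −0.83 ± 0.14 (SE; 95% interval −1.16 to −0.50), Pecam1 came nearest of the 10 to the threshold, with a limma adjusted p of 0.0503.

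The receptors for vessel growth factors showed the same ordering of the groups. Flt1 encodes VEGF receptor 1, which binds VEGF tightly and holds it away from other receptors (chromosome 5, 147561604 to 147726011, minus strand). Its level was 64.8, 55.8 and 59.3 scaled TPM in WT and 22.8, 29.7 and 38.8 in Npc1-/- samples. WT samples were tightly grouped while the Npc1-/- samples spread upward from replicate 1, and the log2 fold change was −0.997 ± 0.18 (SE; 95% interval −1.43 to −0.57, limma adjusted p = 0.0546). Kdr encodes VEGF receptor 2, the main signalling receptor for VEGF-A (chromosome 5, 75932827 to 75978458, minus strand). Here the spread lay on the WT side, at 46.3, 29.0 and 25.6 scaled TPM, while Npc1-/- samples held 19.7, 19.2 and 16.3. The log2 fold change of Kdr was −0.81 ± 0.21 (SE; limma adjusted p = 0.0897). Tek encodes Tie2, the angiopoietin receptor that steadies mature vessels (chromosome 4, 94739289 to 94874976, plus strand). WT samples read 40.6, 38.0 and 29.0 and Npc1-/- samples 18.5, 21.2 and 21.3 scaled TPM, again without overlap, for a log2 fold change of −0.79 ± 0.14 (SE; limma adjusted p = 0.0528).

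The DNA just upstream of these genes is where endothelial transcription factors of the ETS family commonly act, so the promoters of the 2 VEGF receptors above and of Slco1a4, the gene with the lowest fold change, are printed to show the matches found by letter. Each runs 5′ to 3′ from 250 bases before to 50 bases after the RefSeq start (GRCm38.p6), with matches to AGGAAG or CCGGAA on either strand in capitals. They lie at chr5:147725962-147726261 (minus strand, Flt1), chr5:75978406-75978705 (minus strand, Kdr) and chr6:141856171-141856470 (minus strand, Slco1a4).
Flt1: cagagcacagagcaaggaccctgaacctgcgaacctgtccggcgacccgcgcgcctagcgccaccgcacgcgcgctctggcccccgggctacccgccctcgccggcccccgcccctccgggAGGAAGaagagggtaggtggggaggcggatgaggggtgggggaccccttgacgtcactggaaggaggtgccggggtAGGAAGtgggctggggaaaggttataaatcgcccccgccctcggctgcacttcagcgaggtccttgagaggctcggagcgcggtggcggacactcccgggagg
Kdr: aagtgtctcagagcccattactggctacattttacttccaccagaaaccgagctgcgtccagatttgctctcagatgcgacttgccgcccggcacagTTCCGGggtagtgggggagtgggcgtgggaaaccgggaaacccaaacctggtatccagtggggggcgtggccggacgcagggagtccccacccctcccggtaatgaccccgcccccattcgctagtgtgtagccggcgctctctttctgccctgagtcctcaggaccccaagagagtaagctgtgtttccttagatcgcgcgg
Slco1a4: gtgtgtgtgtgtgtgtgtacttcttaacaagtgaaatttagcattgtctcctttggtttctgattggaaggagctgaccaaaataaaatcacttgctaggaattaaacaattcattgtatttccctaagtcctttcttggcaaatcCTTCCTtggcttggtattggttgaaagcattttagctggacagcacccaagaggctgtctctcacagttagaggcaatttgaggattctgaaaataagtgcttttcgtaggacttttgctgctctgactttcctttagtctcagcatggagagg

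RefSeq promoters were found for 8 of the 10 genes, 9 windows in all, and not for Pecam1 and Cdh5. The Abcb1a window (chr5:8566841-8567140) lies far upstream of the Abcb1a gene as placed here, which begins at 8660077. AGGAAG or its reverse complement occurred in 4 of the 9 windows (Abcb1a, Flt1, Ly6c1 and Slco1a4), where 35.4% of all 32851 promoter windows of this length hold it. CCGGAA occurred in 1 (Kdr) against 14.9% of all windows. Letters for SOX factors (ACAAT) stood in the Slco1a4 and Tek windows against 31.0% of all windows, and those for TCF/LEF (CTTTGA), the factors at the end of the Wnt pathway, in Abcb1a and Mfsd2a against 16.0%. The GATA letters AGATAA were found in Tek alone, against 11.2% of all windows. The matches are a description of these windows and do not mark bound sites.

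Transporters of the barrier included the lowest ratio to WT among the 10. Slco1a4 encodes an organic anion transporter (OATP1A4) of brain endothelium (chromosome 6, 141805440 to 141856199, minus strand). It read 74.8, 66.6 and 98.9 scaled TPM in WT and 23.1, 39.0 and 53.9 in Npc1-/- samples. Both groups spread widely but did not overlap, and the log2 fold change was −1.10 ± 0.30 (SE; 95% interval −1.81 to −0.40, limma adjusted p = 0.0942). Abcb1a encodes P-glycoprotein, the efflux pump that returns many drugs to the blood (chromosome 5, 8660077 to 8748575, plus strand). WT samples were close together at 50.2, 51.8 and 56.6, whereas Npc1-/- samples read 17.5, 29.3 and 38.9. Its log2 fold change was −0.95 ± 0.26 (SE; limma adjusted p = 0.0955). Of the 5404 stretches of 100 bases in Abcb1a transcripts, 9.23% also occur in its near copy Abcb1b, which held 1.99 ± 0.148 in WT and 2.72 ± 1.21 scaled TPM in Npc1-/- samples (SD, n = 3 each). How reads matching both copies were divided is not given in the sources used here, so the split between them is uncertain.

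Mfsd2a encodes the transporter of lysophospholipids carrying docosahexaenoic acid, which also holds down vesicle traffic across the endothelium (chromosome 4, 122946850 to 122961188, minus strand). It was 91.3, 81.4 and 87.5 scaled TPM in WT and 61.7, 68.3 and 58.2 in Npc1-/- samples. The groups were compact and apart, yet the difference was the smallest of the 10, at −0.47 ± 0.09 (SE; 95% interval −0.69 to −0.24, limma adjusted p = 0.0589). The Npc1-/- mean of Mfsd2a was 72.3% of the WT mean, where that of Slco1a4 was 48.3%.

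Ly6c1, a surface protein anchored by lipid and abundant on brain capillaries, behaved least like the rest (chromosome 15, 75044018 to 75048830, minus strand). WT samples held 286.3, 276.5 and 329.5 scaled TPM, and Npc1-/- samples held 102.5, 212.2 and 319.2. Npc1-/- replicate 3 lay inside the WT range and replicate 1 far beneath it, so the groups overlapped on this scale. On TPM as deposited they did not, with 370.8, 305.9 and 342.2 in WT and 113.0, 181.4 and 232.0 in Npc1-/- samples. They were also apart after quantile normalization. The log2 fold change was −0.63 ± 0.37 (SE; 95% interval −1.51 to 0.24, limma adjusted p = 0.372), and it was −0.19 without Npc1-/- replicate 1 and −1.01 without Npc1-/- replicate 3. Ly6c1 shares 10.1% of its 100-base stretches with Ly6c2, a gene also used by monocytes, which read 17.8 ± 3.76 in WT and 13.3 ± 7.39 scaled TPM in Npc1-/- samples (SD, n = 3 each). Of 4 monocyte markers, Ly6c2 was the only one that passed the filter on low values.

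**Figure D2:**
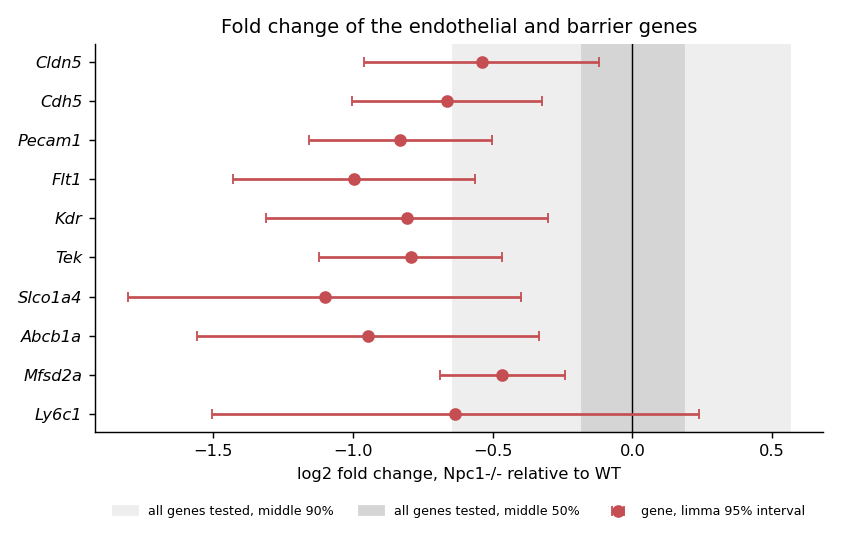
Log2 fold change of each endothelial gene, Npc1-/- minus WT, with its 95% interval from limma. All 10 estimates are below 0, from −1.10 for Slco1a4 to −0.47 for Mfsd2a, and only the interval of Ly6c1 reaches above 0.

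Sample by sample, the libraries kept a similar order for only some of the genes. WT replicate 1 was the highest of all 6 samples for 6 of the 10 genes, WT replicate 3 for 3 and WT replicate 2 for 1. Within WT, replicate 3 was also the lowest for 5 genes and replicate 2 for 4. On scaled TPM, Npc1-/- replicate 1 was the lowest of all samples for 7 of the 10 genes. Npc1-/- replicate 3 was the highest of its group for 7 and the lowest for 2. The order within Npc1-/- depended on the scaling. On TPM as deposited, replicate 1 was the lowest only for Flt1, Slco1a4, Abcb1a and Ly6c1. For the other members it was then the highest of its group, as for Pecam1 at 29.75, 26.66 and 27 in replicates 1 to 3. The 10 values of a library came from 1 preparation and were not 10 independent measurements. With 3 mice against 3, the exact two-sided permutation test has 20 arrangements and cannot go below 0.1, which was its value for each of the 9 genes without overlap; it was 0.3 for Ly6c1.

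The number of members called depended on how samples were scaled and which were used. On TPM as deposited all 10 passed the limma test as lower, as did 5.71% of all genes, with all genes shifted to a median log2 fold change of −0.33 and 54 higher against 870 lower genes called, where scaled TPM gave 61 higher and 63 lower. Relative to that shifted median the 10 genes stood between −1.15 and −0.51. Without Npc1-/- replicate 3, Pecam1, Flt1, Slco1a4 and Abcb1a passed (4 of 10), where 2.45% of all genes were called lower against 0.413% with all 6 samples.

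To ask whether any of the 10 differed from the other endothelial transcripts of the same library, each was expressed relative to the mean of 23 other endothelial identity genes such as Eng, Cd34 and Emcn. These 23 genes were themselves lower on average in Npc1-/- preparations, with a summed level of 54.9% to 71.2% of the WT mean against 92.3% to 106% in the WT samples. On that relative log2 scale the genotype difference ranged from −0.48 for Slco1a4 to 0.16 for Mfsd2a. Tek alone was separated between groups, at 0.45, 0.43 and 0.25 in WT and 0.25, 0.22 and 0.15 in Npc1-/- samples, a difference of −0.17 in which the WT and Npc1-/- values almost touched (exact permutation p = 0.1, two-sided, the smallest possible). Of all genes tested, 71.2% were separated on this scale. Cdh5 (−0.04) and Ly6c1 (−0.01) were nearest to the other endothelial genes, while Flt1 (−0.37), Abcb1a (−0.32), Pecam1 (−0.20) and Kdr (−0.18) were lower on average and Cldn5 (0.09) higher, each with overlapping groups and exact permutation p-values from 0.2 to 1. Without Npc1-/- replicate 3, 6 of the 10 were separated, against 79.8% of all genes. None of the 10 was separated with a pseudocount of 0.1, and with a minimum mean TPM of 5 the separated gene was Pecam1 and not Tek.

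**Figure D3:**
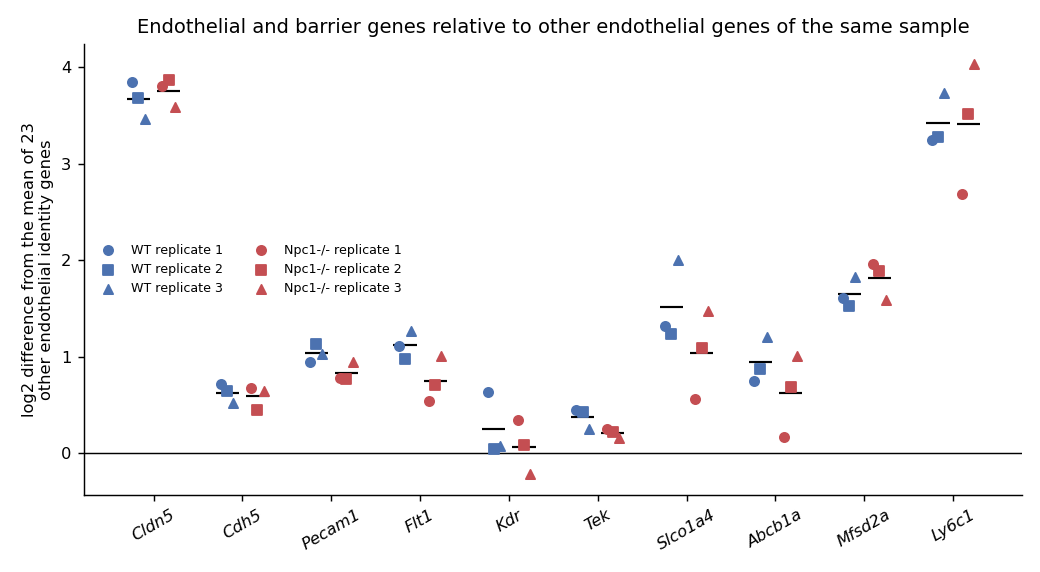
Log2 level of each of the 10 genes minus the mean log2 level of 23 other endothelial identity genes in the same sample, for 3 WT and 3 Npc1-/- samples. Groups overlap for 9 of the 10 genes, and the Tek groups are separated by a narrow gap.

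The 23 other endothelial identity genes were all lower on average in Npc1-/- samples, 19 of them without overlap, with a median log2 fold change of −0.62 beside 0.01 for all genes. Of all genes tested, 14.2% were lower without overlap and 0.413% were called lower, the shares to set beside this list and those below. The limma test called 2 of the 23. Sox18, a transcription factor of endothelial identity, fell from 37.1 ± 4.14 to 21.1 ± 0.551 scaled TPM (SD, n = 3 each; log2 fold change −0.80, limma adjusted p = 0.0364). Ptprb, the endothelial phosphatase VE-PTP that acts on Tie2 and VE-cadherin, fell from 46.7 ± 2.62 scaled TPM to 53.5% of that level (log2 fold change −0.90, limma adjusted p = 0.0364).

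Other barrier transporters, 15 in all, had a median log2 fold change of −0.91, with 15 lower on average, 13 without overlap and 0 called by limma. Slc2a1, the glucose transporter GLUT1, read 326 ± 49.2 in WT and 178 ± 76.4 in Npc1-/- samples (SD, n = 3 each; log2 fold change −0.95, limma adjusted p = 0.134). Slc7a5 and Slc3a2, which pair to carry large neutral amino acids, were at −1.17 and −0.45, and Slc22a8, an organic anion transporter, was at −1.01, with limma adjusted p-values of 0.0526, 0.0875 and 0.0616. Among 12 other junction genes the median was nearer to 0, at −0.40, with 9 lower without overlap and 0 called by limma. Ocln (occludin), Tjp1 (ZO-1) and F11r (JAM-A) stood at −0.85, −0.52 and −0.67. Ctnna1 (α-catenin), which many cell types use, stood at −0.26 on the log2 scale.

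The VEGF and angiopoietin pathway list of 15 genes held calls in both directions. Vegfb, a ligand of VEGF receptor 1, rose from 28.8 ± 1.23 to 48.4 ± 5.97 scaled TPM (SD, n = 3 each; log2 fold change 0.74, limma adjusted p = 0.0427), while its receptor gene Flt1 was lower in every Npc1-/- sample. Dll4, a Notch ligand of vessel tips and arteries, fell with a log2 fold change of −0.91 (limma adjusted p = 0.0446), and Ptprb, named above, is also on this list. In all, 13 of the 15 were lower on average, with a median of −0.61. Of 17 genes of Wnt signalling and barrier induction, 15 were lower on average, 13 without overlap, and 1 was called. That gene was Fzd4, the receptor through which norrin and Wnt ligands act on brain endothelium, at 13.3 ± 0.131 in WT and 6.68 ± 1.31 scaled TPM in Npc1-/- samples (SD, n = 3 each; log2 fold change −0.95, limma adjusted p = 0.0422).

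Genes that mark vessel segments were also read. Among 14 arterial and venous endothelial genes, 12 were lower on average, the median log2 fold change was −0.60, and 2 arterial genes were called, namely Gkn3 at −0.98 and Sema3g at −0.78 (limma adjusted p = 0.0441 and 0.0443). Among 6 fenestrated and lymphatic endothelial genes the median was −0.12, and 4 were lower on average. Lyve1, also on the perivascular macrophage list, stood at −1.46 and Flt4 at −0.81. Both were lower in every Npc1-/- sample and neither was called (limma adjusted p = 0.0658 and 0.0600). In that list Prox1, a regulator of lymphatic endothelium that is also used by young oligodendrocytes and neurons, rose from 3.88 ± 0.195 to 6.39 ± 0.116 scaled TPM (SD, n = 3 each; log2 fold change 0.65, limma adjusted p = 0.0441). Of 12 close relatives of the 10 genes, 8 were tested, with a median log2 fold change of −0.27 and 0 called by limma. Tie1, the partner receptor of Tie2, was at −0.70 and Slco1c1, a thyroxine transporter of the barrier, at −0.92, neither called (limma adjusted p = 0.0528 and 0.0546). The others lay closer to 0, with Ly6c2 at −0.57, Ly6a at −0.28, Cdh2 at −0.26, Cldn3 at −0.10, Cldn12 at 0.07 and Abcb1b at 0.29, all with overlapping groups.

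**Figure D4:**
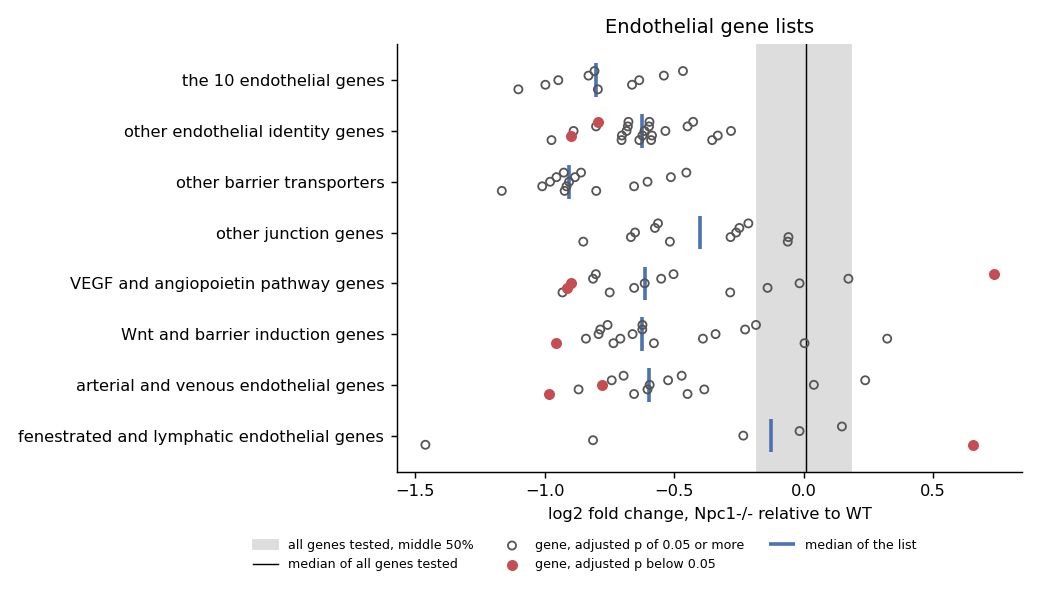
Log2 fold changes, Npc1-/- minus WT, of the genes in each endothelial list, with the median of each list. The medians lie at −0.91 for other barrier transporters, −0.62 for other endothelial identity genes, −0.40 for other junction genes and −0.12 for the fenestrated and lymphatic list, and the median of all genes tested is 0.01.

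Markers of the other cells found along vessels were also lower, and their part in the endothelial result was not tested. All 9 pericyte markers were lower on average, with a summed level of 50.3% to 64.7% of the WT mean against 84.6% to 122.8% in WT samples and a median log2 fold change of −0.82. Rgs5, a pericyte signalling regulator, stood at −0.82, Vtn, vitronectin, at −0.90 and Atp13a5 at −1.10, and 0 of the 9 were called by limma. The 5 smooth muscle markers, among them the contractile genes Acta2 at −0.95, Tagln at −0.90 and Myh11 at −1.21, were lower in every Npc1-/- sample without a call, with sums of 41.4% to 65.7% against 81.5% to 112% of the WT mean. The 6 vascular fibroblast markers had a median of −0.56, with the collagens Col1a2 at −0.81 and Col3a1 at −0.95 and 0 called by limma. Perivascular macrophage markers were lower by more, and 4 of 6 were called by limma, namely Cd163 (−2.29, adjusted p = 0.0102), Mrc1 (−1.90, adjusted p = 0.0364), Cbr2 (−1.48, adjusted p = 0.0272) and F13a1 (−1.56, adjusted p = 0.0364). These genes mark macrophages at the vessel wall, and the summed level of the list was 20.7% to 28.1% of the WT mean against 74.7% to 127% in WT samples. Of 7 microglia markers 1 was called, Tmem119 at −1.44 (limma adjusted p = 0.0442), with a list median of −1.01. Over all the lists 14 genes passed the test, the ependymal marker Rarres2 (−0.77, limma adjusted p = 0.0364) being the last. Of these 14, 12 passed on TPM as deposited, all but Vegfb and Prox1. Without a single library, the number still called was 0 when WT replicate 1, WT replicate 3 or Npc1-/- replicate 2 was left out, 1 without Npc1-/- replicate 1 (Cd163), 2 without WT replicate 2 (Cd163 and Cbr2) and 14 without Npc1-/- replicate 3, each of the 14 keeping its direction.

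Markers of blood and of the brain tissue itself differed from list to list. All 5 red blood cell markers were lower on average, with a median of −0.56 and overlapping groups (Hbb-bs −0.55, Hba-a2 −0.54, Hbb-bt −0.57, Alas2 −0.68). The summed red blood cell markers ran from 29.3% to 116% of the WT mean in Npc1-/- samples and from 67.5% to 158% in WT samples. Within each group the sample with the most Ly6c1 also had the most red blood cell transcripts. The same sample also had the most Slco1a4 and Abcb1a, and a link to blood was not tested. The 9 oligodendrocyte markers had a median log2 fold change of 0.32 with 0 called by limma (Mbp 0.57, Mobp 0.63), and the transcription factors Sox10, Olig1 and Olig2 stood at 0.02, 0.04 and 0.06. Neuron markers had a median of 0.19, with Tubb3 at 0.44, Rbfox3 at 0.33 and Snap25 at 0.30. Oligodendrocyte progenitor markers had a median of −0.13, with Gpr17 at −0.22, Bmp4 at −0.11, Ptprz1 at −0.35 and Pdgfra at 0.26. The oligodendrocyte and neuron medians depended on the scaling, with −0.05 and −0.15 on TPM as deposited and, for oligodendrocytes, −0.08 after quantile normalization. Of 7 astrocyte markers 6 were lower on average, 5 without overlap, with a median of −0.42 and 0 called by limma. Gja1 stood at −0.81 and Aldoc at −0.21, and Gfap was the only one higher, at 1.01 (limma adjusted p = 0.0567, 0.708 and 0.108). The 3 ependymal markers tested were lower on average, with a median of −0.77. No defining marker on the endothelial, pericyte, smooth muscle or macrophage lists was at 0 in all samples.

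**Figure D5:**
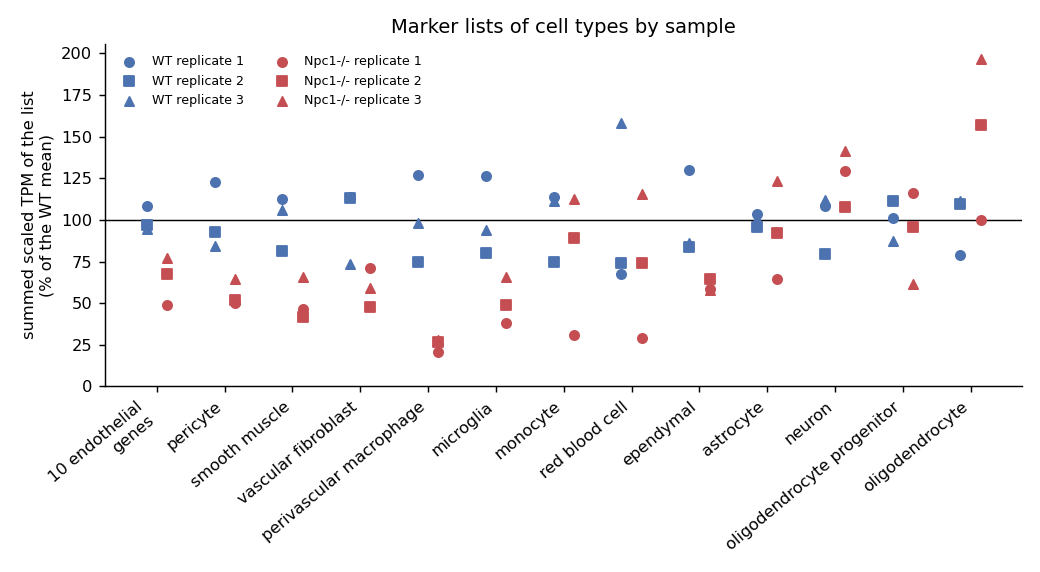
Summed scaled TPM of each cell type's markers in each sample, as a percent of the WT mean of that list, for 3 WT and 3 Npc1-/- samples. The 10 endothelial genes run from 49.1% to 76.8% in Npc1-/- samples, beside 50.3% to 64.7% for pericyte and 20.7% to 28.1% for perivascular macrophage markers.

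The genes outside the 10 whose centred log2 values followed the median of the 10 most closely over the 6 samples were Epha2, Pros1, Hspa12b, Crip2 and Paqr7. Their root mean square distances were 0.0289, 0.0472, 0.0476, 0.0477 and 0.0480. Among the members the distance to that median ran from 0.0931 for Pecam1 to 0.390 for Ly6c1, so Pecam1 was the most typical and Ly6c1 the least. Epha2, an ephrin receptor, read 3.76 ± 0.414 in WT and 2.07 ± 0.358 scaled TPM in Npc1-/- samples (SD, n = 3 each). All 5 were lower in every Npc1-/- sample, with log2 fold changes between −0.76 and −0.65, and none was called.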

How the data were processed

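RNA from O4+ cells of 3 WT and 3 Npc1-/- mice was sequenced, and the authors deposited 1 table of TPM and 1 of FPKM per gene, both normalized for gene length and library size, with no table of read counts used here. The submitters' processing notes name cutadapt 2.3, FastQC 0.11.8, STAR 2.7.8a, RSEM 1.3.3 and MultiQC 1.7 on the mm10 (GRCm38) genome, whereas the study's methods give bbduk, STAR, featureCounts and DESeq2, and which route made the TPM and FPKM values is not given in the sources used here. Whether counting used strand is not given either. Neither unit can be tested as counts, so no count model was run.

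TPM values were divided by median-of-ratios size factors over the 18690 genes above 0 in every sample. The 15245 of 55492 genes whose TPM averaged 0.5 or more were compared between genotypes on log2(scaled TPM + 0.5) with limma 3.58.1 (R 4.3.3, moderated by trend), two-sided, with Benjamini-Hochberg adjustment over all genes tested, and a gene was called at an adjusted p below 0.05 and a log2 fold change of at least 0.1 in size. Fold changes on this scale understate those of low genes. Single values were also compared by an exact permutation test over the samples, unadjusted. The label for each library gave its group. P-values measure the spread between mice. The limma step was tested on simulated data. Depth was read from the steps of low FPKM values, of which 78.2% to 81.7% came out as whole fragments to within 0.15. Positions come from GENCODE M21 on GRCm38 and promoters from RefSeq (Python 3.11.15, pandas 2.3.3, numpy 2.4.6, matplotlib 3.10.9). Near copies were found as 100-base stretches shared between transcripts.

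The 10 genes and all other lists were chosen with earlier results of these data known. Of the other lists the text names every called gene, and otherwise the 2 most abundant and the 2 with the largest fold change, and gives near copies and Sox10, Olig1 and Olig2 beside them. Genes named for likeness are the 5 with the smallest root mean square distance, in log2 units, from the median centred profile of the 10. Alternatives were the scaling, the unit, the pseudocount, the filter, the variance model, the replicate number as a block and leaving out each library.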

Additional observations from a re-analysis of the deposited data

How the results depend on the processing

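All 10 genes had a negative log2 fold change in all 17 settings, and 9 or 10 were without overlap in each setting where this was counted. As reported, 14.2% of all genes tested were lower without overlap. That share is not given for the other settings, and groups of 3 and 2 samples separate more easily than groups of 3. The number called by limma varied more, from 0 of 10 genes and 124 of all genes as reported. TPM as deposited called 10 of the 10 and 924 of all genes, quantile normalization 2 and 225, and a minimum mean TPM of 5, which tests fewer genes, 5 and 447. Without a filter on low values 21 of all genes were called and without the trend 42, each with 0 of the 10. Leaving out each library in turn gave 0 to 4 of the 10 and 4 to 486 of all genes, both highest without Npc1-/- replicate 3. Relative to the other endothelial genes, 1 of the 10 was separated as reported, 2 on TPM as deposited, 3 after quantile normalization, 2 with FPKM, 0 with a pseudocount of 0.1, 2 with a pseudocount of 1, 1 with a minimum mean TPM of 5 (Pecam1 in place of Tek), and 1 to 6 when each library was left out. Of all genes tested, 71.2% were separated on this relative scale as reported. Without Npc1-/- replicate 3, where 6 of the 10 were separated, the share was 79.8%. Except where stated, the cause of the differences between settings was not tested. Whether samples with the same replicate number shared a litter or a preparation is not given in the sources used here. Deviations from the group mean were correlated between the WT and Npc1-/- samples of the same replicate number. The correlations were 0.414, 0.0602 and 0.326 for replicates 1, 2 and 3. Values for samples of different numbers are not given here, so these do not show a pairing. A fit with the replicate block in limma called 8 of the 10 (all but Cldn5 and Ly6c1). It called 2011 of the 15245 genes tested, 1143 higher and 868 lower, among them all 124 called as reported. With 3 mice a group, the exact test could not go below 0.1.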
